A study of Mus musculus with 12 samples.

Results

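Inhibitory receptors are surface proteins that dampen a lymphocyte's response when they bind a ligand on a neighbouring cell. The 10 receptor genes examined here, Havcr2, Lag3, Pdcd1, Tigit, Btla, Cd160, Klrg1, Cd200, Cd5 and Cd244a, were taken by symbol, and each had 1 probe set among the 22180 genes that carried exactly 1 symbol. The samples were mouse splenic regulatory T cells (Treg), isolated with a cell sorter and profiled on Affymetrix arrays, and levels are log2 expression values. The series set Treg that arise under intravenous immunoglobulin (IVIg), IgG pooled from many donors, against the endogenous Treg of mice with allergic airways disease.

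All mice were DEREG animals that had been sensitized to ovalbumin (OVA) and then challenged with it. In this strain a transgene under Foxp3 control makes a fusion of green fluorescent protein and the receptor for diphtheria toxin (DTx), so that an injection of the toxin removes Foxp3-expressing cells. The eTreg group (endogenous Treg, 4 arrays) had human serum albumin (HSA), the control protein, in a dose of 2 g/kg, and the series design lists it without DTx. The e_iTreg group (endogenous together with induced Treg, 4 arrays) had IVIg at 2 g/kg and no DTx. The iTreg group (induced Treg, 4 arrays) had DTx at 40 ng/g to deplete endogenous Treg and then IVIg at 2 g/kg. One protocol text serves every sample and reads as if HSA mice too had been given the toxin first, and here the groups were taken as the design lists them. A group given toxin and HSA was not analysed here. The iTreg and eTreg groups therefore differ both in IVIg and in DTx, and their parts cannot be told apart. The iTreg and e_iTreg groups both had IVIg and differ by design in DTx. The e_iTreg and eTreg groups, both listed without DTx, differ by design in the protein given. The cells that remained or returned after DTx are in the iTreg sort whether or not IVIg induced them, and these data cannot tell them apart.

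T cell inhibitory receptors recruit phosphatases or other adaptors through short cytoplasmic motifs, or compete with an activating receptor for the same ligand, and so limit signals from the T cell receptor and from costimulators. Treg carry many of them, and TIM-3 (Havcr2), LAG-3 and TIGIT are known to mark activated, highly suppressive Treg. KLRG1 marks terminally differentiated Treg, and several of the others are shared by most T cells.

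Promoter sequences were looked up for the members because transcription factors known to act on these genes changed in the same arrays, as described further on. RefSeq promoters of the GRCm38.p6 assembly, from 250 bases before to 50 bases after a start site, were matched by symbol for 8 of the 10 members (9 promoters). Lag3 and Klrg1 had no entry. The motifs searched on both strands were the T-box core GTGTGA, the BATF and AP-1 site TGANTCA, the Blimp-1 core GAAAGTG, the Nr4a site AAGGTCA and the NFAT core GGAAAA. None of these motifs contains another. The 3 sequences below are shown because they belong to 2 receptors that rose in iTreg and to 1 that did not pass the test while holding the only pair of T-box cores, and capitals mark the matched letters.
Havcr2, chr11:46454681-46454980, plus strand: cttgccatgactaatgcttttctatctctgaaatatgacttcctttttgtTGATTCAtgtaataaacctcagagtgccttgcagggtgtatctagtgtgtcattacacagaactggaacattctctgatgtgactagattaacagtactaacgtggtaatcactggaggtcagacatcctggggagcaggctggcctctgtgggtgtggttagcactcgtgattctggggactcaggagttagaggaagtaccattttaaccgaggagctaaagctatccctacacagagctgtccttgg
Tigit, chr16:43664135-43664434, minus strand: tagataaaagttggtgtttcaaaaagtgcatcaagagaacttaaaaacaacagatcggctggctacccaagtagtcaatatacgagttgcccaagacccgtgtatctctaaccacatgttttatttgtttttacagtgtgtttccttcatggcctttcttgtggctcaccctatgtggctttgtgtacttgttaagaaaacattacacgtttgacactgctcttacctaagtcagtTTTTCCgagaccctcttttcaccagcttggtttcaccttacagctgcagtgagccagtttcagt
Btla, chr16:45224087-45224386, plus strand: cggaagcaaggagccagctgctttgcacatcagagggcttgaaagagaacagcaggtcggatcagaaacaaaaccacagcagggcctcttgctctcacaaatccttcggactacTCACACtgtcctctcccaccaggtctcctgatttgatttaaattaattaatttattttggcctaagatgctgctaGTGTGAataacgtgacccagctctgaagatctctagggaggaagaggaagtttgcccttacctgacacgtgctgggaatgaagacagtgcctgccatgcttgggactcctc
The Havcr2 window holds the BATF and AP-1 letters TGATTCA 200 bases before the start, a motif found in 7.81% of 32851 promoters of the same length. The Tigit window holds TTTTCC, the NFAT core read on the other strand, 14 bases before the start (23.4% of promoters). Btla has a T-box core at 136 and again at 61 bases before the start. At least 1 such core is in 14.5% of promoters, and the share with a pair was not counted. Each of the 2 Cd160 promoters also holds a T-box core, at 188 and 186 bases before its start, and Cd244a holds TGAGTCA at 122. The Blimp-1 core (4.81% of promoters) and the Nr4a site (4.72%) are in 0 of the 9 member promoters. These matches describe letters in a short window and say nothing on whether a factor binds there.

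Defining Treg and T cell transcripts were high on all arrays. The mean of 6 Treg identity genes (Foxp3, Il2ra, Ctla4, Ikzf2, Nrp1 and Tnfrsf18) lay between 11.16 and 11.50 on the 12 arrays. In iTreg it was 11.16 to 11.24, below all other arrays (11.26 to 11.50). All 6 genes were lower in iTreg in both comparisons, with median differences of -0.12 and -0.11. Of the 6, 0 passed the test in any comparison. Other transcripts varied between arrays. B cell marker means (11 genes) were 5.96, 6.15 and 5.99 in eTreg replicates 3 and 4 and e_iTreg replicate 4, against 6.89 to 7.78 on the other 9. The plasma cell mean (5 genes) was 8.96 in iTreg replicate 4, and 6.82, 6.47 and 6.58 in iTreg replicates 1 to 3. In eTreg and e_iTreg it was 5.90 to 6.525, below iTreg replicates 1, 3 and 4. The mean of monocyte, macrophage and dendritic cell markers (11 genes) was 7.79 in iTreg replicate 4 against 6.44 to 6.99 elsewhere. CD8 T and NK cell markers (10 genes) stayed between 6.40 and 7.01, with 0 of 10 past the threshold. By Xist and 3 Y-linked genes, 3 arrays (eTreg replicate 3, e_iTreg replicate 4 and iTreg replicate 4) showed the signal of 1 sex, while the other 9 carried both. The sex was not the same in the 3. The signal was male in e_iTreg replicate 4 (Xist 5.82, Y-linked Eif2s3y 9.72). It was female in eTreg replicate 3 (11.37 and 4.33) and iTreg replicate 4 (11.14 and 4.47). The mean of 12 cell cycle markers was 9.36 to 10.13 in iTreg, above all other arrays (6.79 to 8.81), and 12 of the 12 were higher in iTreg in both comparisons. In bulk RNA a change in the share of cells that carry a transcript and a change in RNA per cell cannot be told apart.

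Each difference was tested with limma over 23521 probe sets with 1 symbol, with a threshold of adjusted p 0.05, and n is 4 arrays per group throughout. The series design calls the arrays biological replicates, and the p-values measure the spread between them. Whether an array holds 1 animal or a pool is not given in the sources used here, and 9 arrays carry the signal of both sexes, so n counts samples and not animals. In iTreg minus eTreg 3 of the 10 receptors rose (Havcr2, Tigit and Lag3), where 5.36% of all probe sets rose, and 0 fell, where 4.63% fell. In iTreg minus e_iTreg 2 of the 10 rose (Havcr2 and Lag3; background 6.49%) and 1 fell (Cd160; background 4.75%). In e_iTreg minus eTreg 0 of the 10 passed in either direction, as did 0% of all probe sets in each direction by limma. Of the 23521 probe sets, 1649 had an unadjusted p under 0.05 by limma, a count that includes those expected by chance alone. Counted by arrays that did not overlap between groups, 2 receptors stood apart in iTreg minus eTreg (14.7% of all probe sets), 3 in iTreg minus e_iTreg (16.6%) and 0 in e_iTreg minus eTreg (4.29%). The median difference over the 10 receptors was 0.12, 0.02 and 0.02 in the 3 comparisons, against -0.01, -0.07 and 0.03 over all probe sets. The 2 comparisons with iTreg share its 4 arrays and are not independent of each other.

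**Figure D1:**
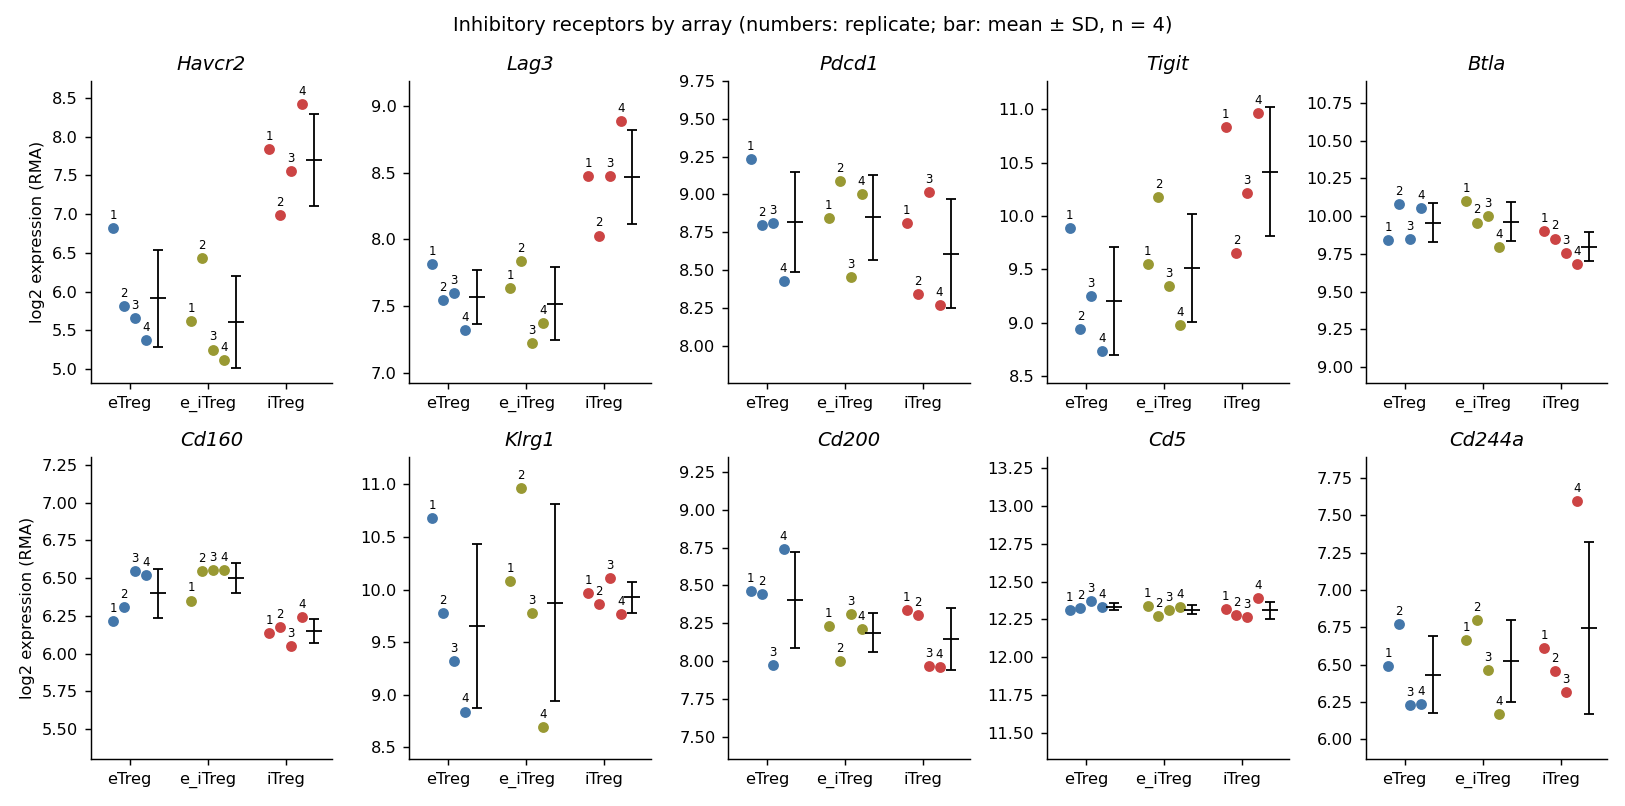
Log2 expression (y axis) of the 10 inhibitory receptors on each of the 12 arrays by group (x axis), with replicate numbers beside the points and bars for the mean ± SD of 4 arrays. All iTreg arrays lie above the other 8 for Havcr2 (6.99 and higher) and Lag3 (8.03 and higher), while Klrg1 spreads from 8.69 to 10.96 in eTreg and e_iTreg and only from 9.77 to 10.11 in iTreg.

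Havcr2 encodes TIM-3, a receptor of the TIM family whose reported ligands include galectin-9, CEACAM1 and HMGB1. Its levels were 6.82, 5.82, 5.66 and 5.38 in eTreg replicates 1 to 4 and 5.62, 6.43, 5.25 and 5.12 in e_iTreg. In iTreg they were 7.84, 6.99, 7.56 and 8.42. The lowest iTreg array (replicate 2) lay above the highest array of both other groups, so the groups did not overlap. Group means were 5.92 ± 0.63, 5.61 ± 0.59 and 7.71 ± 0.59 (SD, n = 4) in eTreg, e_iTreg and iTreg. The rise in iTreg was 3.45-fold over eTreg (log2 difference 1.79 ± 0.34 SE, limma adjusted p = 0.00425) and 4.29-fold over e_iTreg (2.10 ± 0.34, limma adjusted p = 0.00191). The e_iTreg and eTreg groups differed by -0.31, with a 95% interval of -1.04 to 0.42. In eTreg and e_iTreg the probe set lay below log2 6 on 6 of 8 arrays, a range in which the arrays' signal is dim.

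Within iTreg, Havcr2 had the array order 4, 1, 3, 2 from high to low, and Tigit had the same order. The plasma cell marker mean and the monocyte, macrophage and dendritic cell marker mean had it as well. Of those 11 myeloid markers Itgam, an integrin of myeloid cells and some activated T cells, and Cst3, a protease inhibitor, rose in both comparisons, by 1.68 and 0.57 over eTreg. Csf1r and Adgre1, which define macrophages, differed by 0.47 ± 0.39 and 0.35 ± 0.34 and did not pass. Both stood out in iTreg replicate 4, at 8.99 and 8.29, and were at most 7.35 and 6.63 on the other arrays. Siglech, a marker of plasmacytoid dendritic cells, fell against e_iTreg by 0.45. Of 5 plasma cell markers 0 passed, but all 5 were higher in iTreg in both comparisons (median difference 0.78 and 0.63). The largest was Jchain, at 2.62 ± 0.81 against eTreg (limma adjusted p = 0.0551). Without iTreg replicate 4 Havcr2 differed by 1.55 from eTreg (limma adjusted p = 0.0112) and by 1.86 from e_iTreg (limma adjusted p = 0.0045). With the plasma cell and myeloid marker mean as a covariate the differences were 1.18 (limma adjusted p = 0.0654) and 1.62 (limma adjusted p = 0.0107). The 2 means were 8.96 and 7.79 in iTreg replicate 4 and at most 6.82 and 6.99 on the other arrays. That array therefore weighs heavily in every fit with this covariate. The covariate also includes Itgam, which did not overlap between iTreg and the other groups. Such fits cannot decide the part of other cells in a receptor's values.

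Lag3 encodes a CD4-related receptor that binds MHC class II and is also reported to bind FGL1 and galectin-3. It stood at 7.82, 7.54, 7.59 and 7.32 in eTreg, at 7.64, 7.84, 7.22 and 7.37 in e_iTreg and at 8.48, 8.03, 8.48 and 8.89 in iTreg. Again every iTreg array exceeded every other array, and the margin between the lowest iTreg array and the highest of the rest was narrow. The difference was 0.90 ± 0.17 (1.86-fold, limma adjusted p = 0.00447) against eTreg. Against e_iTreg it was 0.95 ± 0.17 (1.93-fold, limma adjusted p = 0.00343). Between e_iTreg and eTreg it was -0.05 ± 0.17. Leaving out each array in turn kept both calls, with differences from 0.76 to 1.10. With the plasma cell and myeloid marker mean as a covariate the call against eTreg was lost (0.60, limma adjusted p = 0.0735) and that against e_iTreg was kept (0.72, limma adjusted p = 0.0221).

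Without the 3 arrays low in B cell markers, which left 2 eTreg arrays, the differences from eTreg were 1.39 for Havcr2 (limma adjusted p = 0.0929) and 0.79 for Lag3 (limma adjusted p = 0.0919), past the threshold no longer. Against e_iTreg both calls held in that fit. With the cell cycle marker mean as a covariate the differences from eTreg were 0.54 (Havcr2, limma adjusted p = 0.762) and 0.44 (Lag3, limma adjusted p = 0.675). Those from e_iTreg were 0.92 and 0.52 (limma adjusted p = 0.529 and 0.577). That marker mean does not overlap between iTreg and the other groups, so the covariate and the group can hardly be separated in this fit.

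Tigit encodes a receptor that binds the poliovirus receptor CD155 (Pvr) and nectin-2, for which it competes with the activating receptor CD226. Levels were 9.89, 8.94, 9.25 and 8.74 in eTreg, 9.55, 10.18, 9.34 and 8.98 in e_iTreg and 10.83, 9.65, 10.22 and 10.96 in iTreg. The iTreg replicate 2 fell within the range of both other groups, and eTreg replicate 1 and e_iTreg replicate 2 reached into that of iTreg. The group means of 9.20, 9.51 and 10.42 therefore had overlapping arrays. Tigit rose 2.32-fold in iTreg over eTreg (1.21 ± 0.31, limma adjusted p = 0.0206). Against e_iTreg it differed by 0.90 ± 0.31, with a 95% interval of 0.25 to 1.56, and did not pass (limma adjusted p = 0.0729). Those 2 differences are 0.31 ± 0.31 apart, which is the e_iTreg minus eTreg value (limma adjusted p = 0.801).

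The Tigit call against eTreg was lost without eTreg replicate 2 (1.12, limma adjusted p = 0.0655), eTreg replicate 4 (1.06, 0.0673), iTreg replicate 1 (1.07, 0.0689) or iTreg replicate 4 (1.03, 0.0588). In the other comparison a call appeared without e_iTreg replicate 2 (1.13, limma adjusted p = 0.0283) or iTreg replicate 2 (1.16, limma adjusted p = 0.0221). The call against eTreg was also lost when rows with several or no symbol were tested too (limma adjusted p = 0.0601) and with a trended, robust prior (limma adjusted p = 0.0641). The direction was higher in iTreg in these fits. It was lost as well with the plasma cell and myeloid marker mean as a covariate (0.73, limma adjusted p = 0.259), without the 3 arrays low in B cell markers (1.001, limma adjusted p = 0.193) and without the 3 arrays with the signal of 1 sex (1.05, limma adjusted p = 0.096). With the cell cycle marker mean as a covariate the difference from eTreg was 0.15 (limma adjusted p = 0.942), and that from e_iTreg turned to -0.10 (limma adjusted p = 0.981).

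Pdcd1 encodes PD-1, the receptor of PD-L1 and PD-L2 and a brake that recruits the phosphatase SHP-2. By this test it was not higher in iTreg. Its levels were 9.23, 8.80, 8.81 and 8.43 in eTreg, 8.85, 9.09, 8.45 and 9.003 in e_iTreg and 8.81, 8.34, 9.02 and 8.27 in iTreg. All 3 groups overlapped, and the mean was lowest in iTreg (8.61 ± 0.36 against 8.82 ± 0.33 and 8.85 ± 0.28). The differences of -0.21 (95% interval -0.63 to 0.21) and -0.24 (-0.66 to 0.18) did not pass, and both intervals end below the estimate for Lag3. In iTreg replicate 4, where Havcr2, Lag3 and Tigit were at their highest, Pdcd1 was at its lowest.

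**Figure D2:**
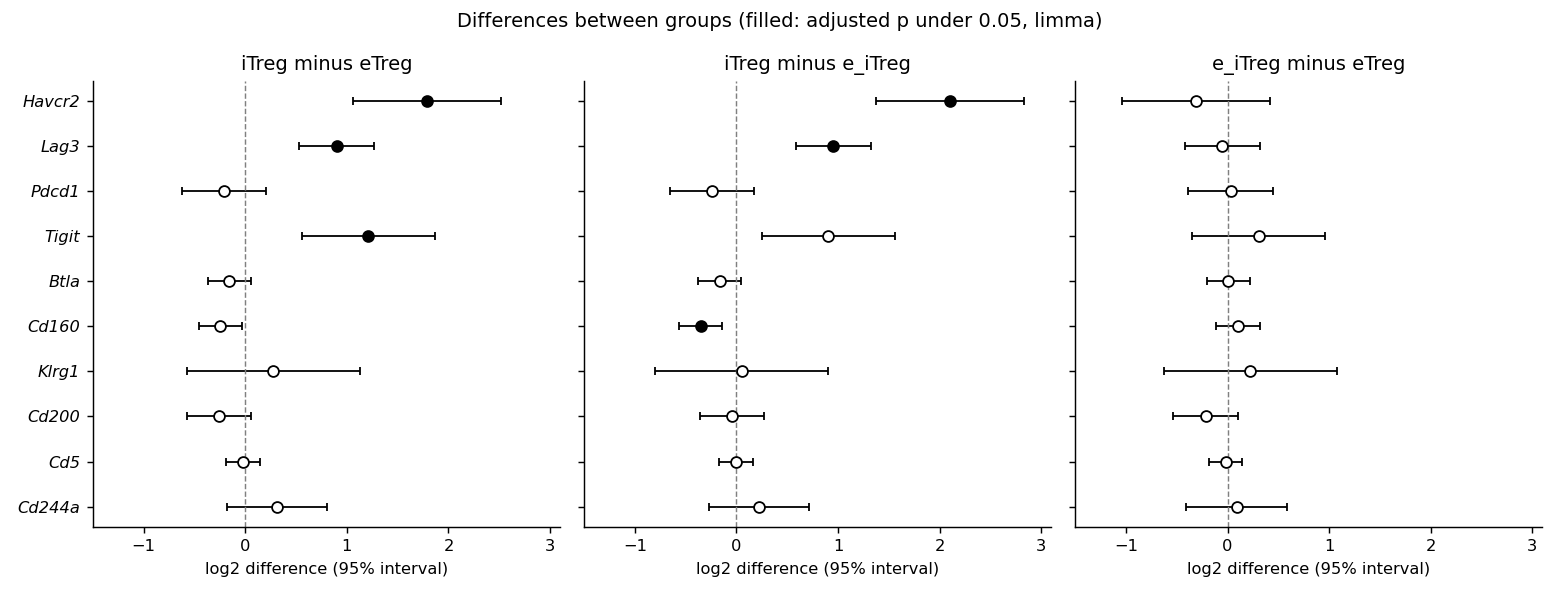
Log2 differences (x axis, with 95% intervals) of the 10 receptors (y axis) in the 3 comparisons, filled where limma's adjusted p was under 0.05. Havcr2, Lag3 and Tigit lie to the right in both comparisons with iTreg (0.90 to 2.10, Tigit against e_iTreg unfilled), Cd160 lies to the left (-0.25 and -0.35) and no point is filled in e_iTreg minus eTreg.

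Btla and Cd160 both bind HVEM (Tnfrsf14), a member of the TNF receptor family. Cd160 was dim, at 6.22, 6.31, 6.55 and 6.52 in eTreg, 6.35, 6.55, 6.56 and 6.56 in e_iTreg and 6.14, 6.18, 6.05 and 6.24 in iTreg. The iTreg arrays lay below all e_iTreg arrays, and iTreg replicate 4 lay above 1 eTreg array. Cd160 fell 1.28-fold in iTreg against e_iTreg (-0.35 ± 0.10, limma adjusted p = 0.0343). Against eTreg the difference was -0.25 ± 0.10 (limma adjusted p = 0.152). The call was among the least firm. It was lost without e_iTreg replicate 2, 3 or 4 or without iTreg replicate 1 or 3 (limma adjusted p from 0.0623 to 0.092), after quantile normalization (-0.26, limma adjusted p = 0.0903) and after centring arrays on the median (-0.26, limma adjusted p = 0.111).

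Btla was steady, with values of 9.84, 10.08, 9.85 and 10.06 in eTreg, 10.10, 9.96, 9.998 and 9.80 in e_iTreg and 9.90, 9.85, 9.75 and 9.69 in iTreg. The groups overlapped, and the differences of -0.16 ± 0.10 from both other groups did not pass (limma adjusted p = 0.424 and 0.309).

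Klrg1, a lectin-like receptor that binds cadherins, had the widest spread of the 10 receptors in eTreg and in e_iTreg. It was at 10.68, 9.78, 9.32 and 8.84 in eTreg and at 10.08, 10.96, 9.77 and 8.69 in e_iTreg. The iTreg arrays were close together at 9.97, 9.87, 10.11 and 9.77. The SD was 0.78 and 0.94 in the first 2 groups and 0.15 in iTreg, and the means were near each other (9.66, 9.88 and 9.93). The difference from eTreg was 0.27 ± 0.40, and its 95% interval of -0.58 to 1.12 is too wide to exclude a rise as large as that of Lag3. Against e_iTreg it was 0.05 ± 0.40 (-0.80 to 0.90).

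The order of Klrg1 among replicates followed that of other transcripts. From high to low it was 1, 2, 3, 4 in eTreg and 2, 1, 3, 4 in e_iTreg, and Havcr2, the cell cycle marker mean and the CD8 T and NK cell marker mean had those same orders. The B cell marker mean had the same order in e_iTreg and nearly the same in eTreg (1, 2, 4, 3). The cell cycle means were 8.77, 7.63, 7.44 and 6.79 in eTreg and 8.21, 8.81, 7.24 and 6.88 in e_iTreg. The CD8 T and NK cell means were 6.92, 6.78, 6.46 and 6.40 and 6.76, 6.93, 6.76 and 6.42, and the part of these cells in the Klrg1 values was not tested. In iTreg, where the cell cycle mean was higher on every array, Klrg1 stayed below eTreg replicate 1 and e_iTreg replicate 2. With the cell cycle marker mean as a covariate, a fit added after seeing the data, Klrg1 was lower in iTreg by -1.72 against eTreg (limma adjusted p = 0.0414) and by -1.82 against e_iTreg (limma adjusted p = 0.0129). These values rest on extending the trend of the other 8 arrays to marker levels that only iTreg arrays have.

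**Figure D3:**
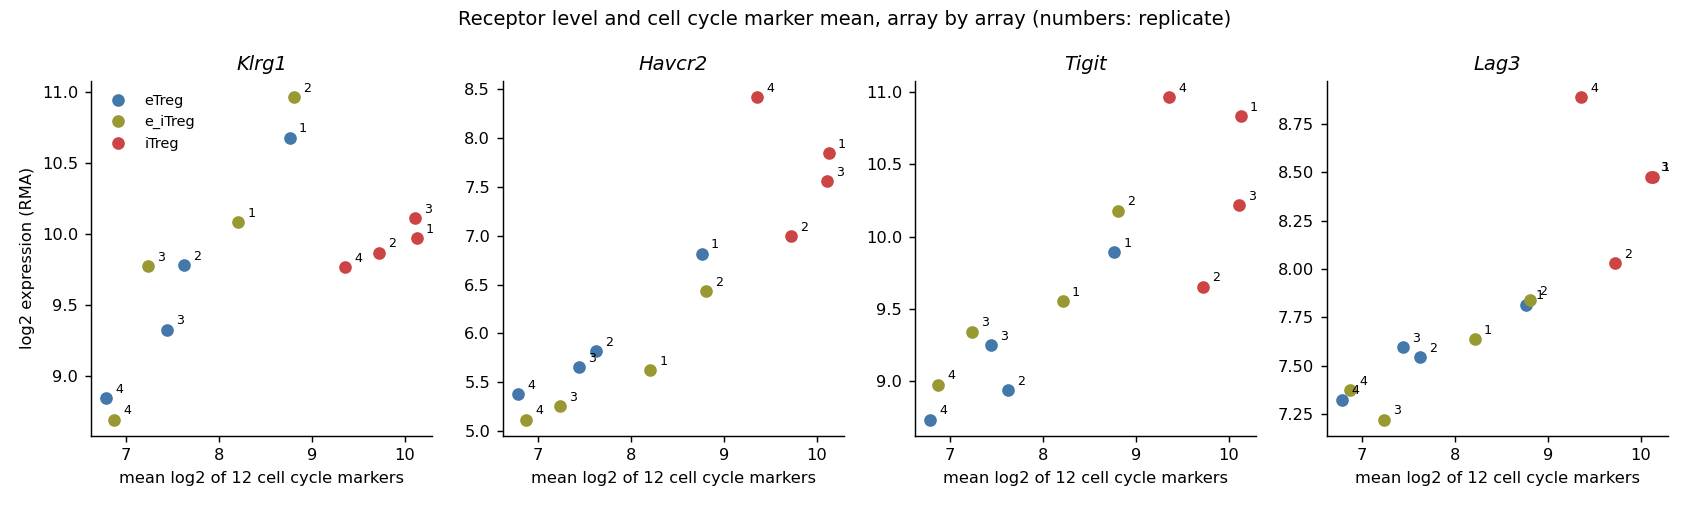
Log2 expression of Klrg1, Havcr2, Tigit and Lag3 (y axes) against the mean log2 of 12 cell cycle markers (x axis) on the 12 arrays, coloured by group and numbered by replicate. In eTreg and e_iTreg the arrays with a higher marker mean (up to 8.81) have more Klrg1 (up to 10.96), and the 4 iTreg arrays, at marker means of 9.36 to 10.13, lie at 9.77 to 10.11.

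Cd200, Cd5 and Cd244a did not pass in any comparison. Cd200 is an immunoglobulin family protein that acts as the ligand of an inhibitory receptor on other cells. It was at 8.46, 8.44, 7.97 and 8.74 in eTreg, 8.23, 8.003, 8.31 and 8.21 in e_iTreg and 8.34, 8.30, 7.97 and 7.96 in iTreg, and differed between iTreg and eTreg by -0.26 ± 0.15. Cd5, which tunes T cell receptor signals and whose level is known to track their strength, was near the top of the scale on every array (12.26 to 12.39). Its differences were -0.02, -0.0033 and -0.02 (SE 0.08), the narrowest intervals of the 10 receptors (-0.19 to 0.14 for iTreg minus eTreg).

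Cd244a encodes 2B4, a receptor of the SLAM family that binds CD48 and signals through SAP. It was dim, at 6.49, 6.77, 6.23 and 6.24 in eTreg, 6.66, 6.80, 6.46 and 6.17 in e_iTreg and 6.61, 6.46, 6.32 and 7.59 in iTreg. Its iTreg mean of 6.75 ± 0.58 rested on replicate 4, the array with the high plasma cell and myeloid marker means. The difference from eTreg was 0.31 ± 0.23, and 0.03 without that array.

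Replicates differed together across several receptors. The eTreg replicate 1 was the highest of its group for 5 of the 10 and the lowest for 3. The e_iTreg replicate 2 was the highest for 6 of the 10 and the lowest for 2. The iTreg replicate 4 went both ways, the highest for 6 of the 10 and the lowest for the other 4 (Pdcd1, Btla, Klrg1 and Cd200). In the other groups eTreg replicate 4 and e_iTreg replicate 4 were the lowest for 5 receptors each. Both of these arrays had low myeloid, B cell and cell cycle marker means. The means were 6.47, 6.15 and 6.79 in eTreg replicate 4, and 6.44, 5.99 and 6.88 in e_iTreg replicate 4. Of the 12 arrays, e_iTreg replicate 4 had the lowest myeloid mean and eTreg replicate 4 the lowest cell cycle mean.

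Genes of the receptors' pathways were taken from 4 lists of ligands, related receptors, adaptors and transcription factors, 78 genes in all, of which 74 were measured with 1 symbol (Cd72, Lck, Csnk2b and Tcf7 were not). In iTreg minus eTreg 10 of the 74 rose, where 5.36% of all probe sets rose, and 10 fell, where 4.63% fell. In iTreg minus e_iTreg 10 of the 74 rose (background 6.49%) and 12 fell (background 4.75%). The same backgrounds apply to the counts of each list that follow, and the genes were listed with earlier results known. In e_iTreg minus eTreg 0 of the 74 passed. With the cell cycle marker mean as a covariate 0 passed in either comparison with iTreg, and with the plasma cell and myeloid mean 8 and 14 passed. The median differences of the 74 genes were 0.02 and -0.01 in the comparisons with iTreg, against -0.01 and -0.07 over all probe sets.

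Among 17 measured ligands and binding partners 2 rose and 1 fell in each comparison with iTreg. Pvr, the CD155 ligand of TIGIT, was at 8.72, 8.72, 8.99 and 8.63 in eTreg, 8.39, 8.37, 8.44 and 8.86 in e_iTreg and 7.87, 7.71, 8.01 and 8.03 in iTreg. All iTreg arrays were lower than the other 8, by -0.86 ± 0.13 against eTreg (limma adjusted p = 0.0012) and -0.61 ± 0.13 against e_iTreg (limma adjusted p = 0.0064). Cd48, the ligand of 2B4, rose by 0.54 ± 0.13 and 0.82 ± 0.13 (limma adjusted p = 0.0131 and 0.00148), from 11.28 to 11.69 in eTreg and 10.93 to 11.40 in e_iTreg to 11.83 to 12.12 in iTreg. Lgals3, which encodes galectin-3, rose by 1.29 ± 0.21 and 1.04 ± 0.21 (limma adjusted p = 0.00197 and 0.00565), and its iTreg arrays (8.10 to 8.47) did not overlap the others (6.55 to 7.75).

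The other 14 ligands did not pass. Galectin-9 (Lgals9), a ligand of TIM-3, differed by 0.05 ± 0.09 from eTreg and Hmgb1 by 0.33 ± 0.10 (limma adjusted p = 0.0539). The PD-1 ligands Cd274 and Pdcd1lg2 were each at -0.06 ± 0.11. Tnfrsf14, bound by Btla and Cd160, was at -0.04 ± 0.10, and the CD200 receptor Cd200r1 at -0.12 ± 0.21. The cadherins Cdh1 and Cdh2, bound by KLRG1, were each at 0.02 against eTreg, with SE 0.10 and 0.11. Cdh2, Nectin3, Fgl1 and Clec4g had group means below log2 6 in all 3 groups.

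Of 20 receptors that share a ligand or a family with the members, 2 rose and 3 fell against eTreg, and 3 rose and 3 fell against e_iTreg. Cd96, which binds CD155 as TIGIT does, was at 11.15, 11.46, 11.53 and 11.60 in eTreg, 11.18, 11.13, 11.67 and 11.36 in e_iTreg and 10.21, 10.68, 10.47 and 10.04 in iTreg. It fell by 1.09 ± 0.15 on the log2 scale against eTreg (limma adjusted p = 0.00107) and by 0.98 ± 0.15 against e_iTreg (limma adjusted p = 0.00156), without overlap. Cd226, the activating receptor for the same ligand, differed by -0.25 ± 0.11 from eTreg (limma adjusted p = 0.21). In the CD155 group of genes Tigit was therefore higher, Cd96 and Pvr were lower and Cd226 was not past the threshold in iTreg minus eTreg.

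Lair1, a collagen receptor with inhibitory motifs, rose by 1.03 ± 0.16 and 1.08 ± 0.16 (limma adjusted p = 0.00161 and 0.00118), and its iTreg arrays (7.05 to 7.52) lay above the others (5.94 to 6.58). The costimulator Icos rose by 1.03 ± 0.21 and 0.80 ± 0.21 (limma adjusted p = 0.00629 and 0.025). Of the others in this list, Cd101 fell by 0.51 and 0.54 and the adhesion molecule Pecam1 by 0.45 and 0.35 on the log2 scale. Slamf6, a SLAM family receptor, rose against e_iTreg (0.42 ± 0.13, limma adjusted p = 0.0443) and was at 0.34 ± 0.13 against eTreg (limma adjusted p = 0.12). Ctla4 (-0.10 ± 0.12), Vsir (0.15 ± 0.10) and Cd28 (0.24 ± 0.10) did not pass against eTreg.

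Among 18 cytoplasmic adaptors and phosphatases 2 rose and 2 fell against eTreg, and 2 rose and 1 fell against e_iTreg. Sh2d1a, which encodes SAP, the adaptor of 2B4 and other SLAM receptors, rose by 0.68 ± 0.12 and 0.54 ± 0.12 (limma adjusted p = 0.00239 and 0.00794). The ubiquitin ligase Cblb, a brake on costimulation-dependent signalling, fell by 0.44 ± 0.11 and 0.54 ± 0.11 on the log2 scale (limma adjusted p = 0.0143 and 0.00484). Ubash3a, of the Sts phosphatase family, fell by 0.44 ± 0.12 against eTreg, and the adaptor Dok2 rose by 0.31 ± 0.08. Neither passed against e_iTreg, where the adaptor Grb2 rose by 0.31 ± 0.10 (limma adjusted p = 0.0494). The phosphatases that PD-1 and other members recruit did not pass, with Ptpn11 (SHP-2) at 0.19 ± 0.12, Ptpn6 (SHP-1) at 0.20 ± 0.12 and Inpp5d (SHIP-1) at 0.11 ± 0.12 against eTreg.

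Of 19 measured transcription factors known to act on these receptor genes, 4 rose and 4 fell against eTreg, and 3 rose and 7 fell against e_iTreg. Tbx21, which encodes T-bet, rose most, by 1.51 ± 0.15 and 1.38 ± 0.15 (limma adjusted p = 0.000177 and 0.000383). Its iTreg arrays (8.85 to 9.53) lay above all others (7.40 to 8.01). Prdm1, which encodes Blimp-1, rose by 1.04 ± 0.19 and 0.94 ± 0.19, and Batf, an AP-1 family factor of effector Treg, by 0.75 ± 0.17 and 0.65 ± 0.17. Maf rose against eTreg (1.05 ± 0.23, limma adjusted p = 0.00827) and was at 0.64 against e_iTreg (limma adjusted p = 0.0858).

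The factors that fell in both comparisons were the repressors Bach2 (-1.02 and -1.05) and Bcl6 (-0.81 and -0.92) and the T cell receptor-induced nuclear receptors Nr4a3 (-0.86 and -0.99) and Nr4a1 (-0.69 and -0.83). Against e_iTreg 3 more fell, which were named after their values were seen, Nr4a2 (-1.12, limma adjusted p = 0.0177), Tox (-0.45, limma adjusted p = 0.0427) and Foxo1 (-0.32, limma adjusted p = 0.0452). Nr4a and Tox factors are known for sustaining PD-1 in chronically stimulated T cells. Eomes was at -0.15 ± 0.12, Nfatc1 at -0.01 ± 0.11 and Nfatc2 at 0.16 ± 0.09 against eTreg, and none of these passed.

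**Figure D4:**
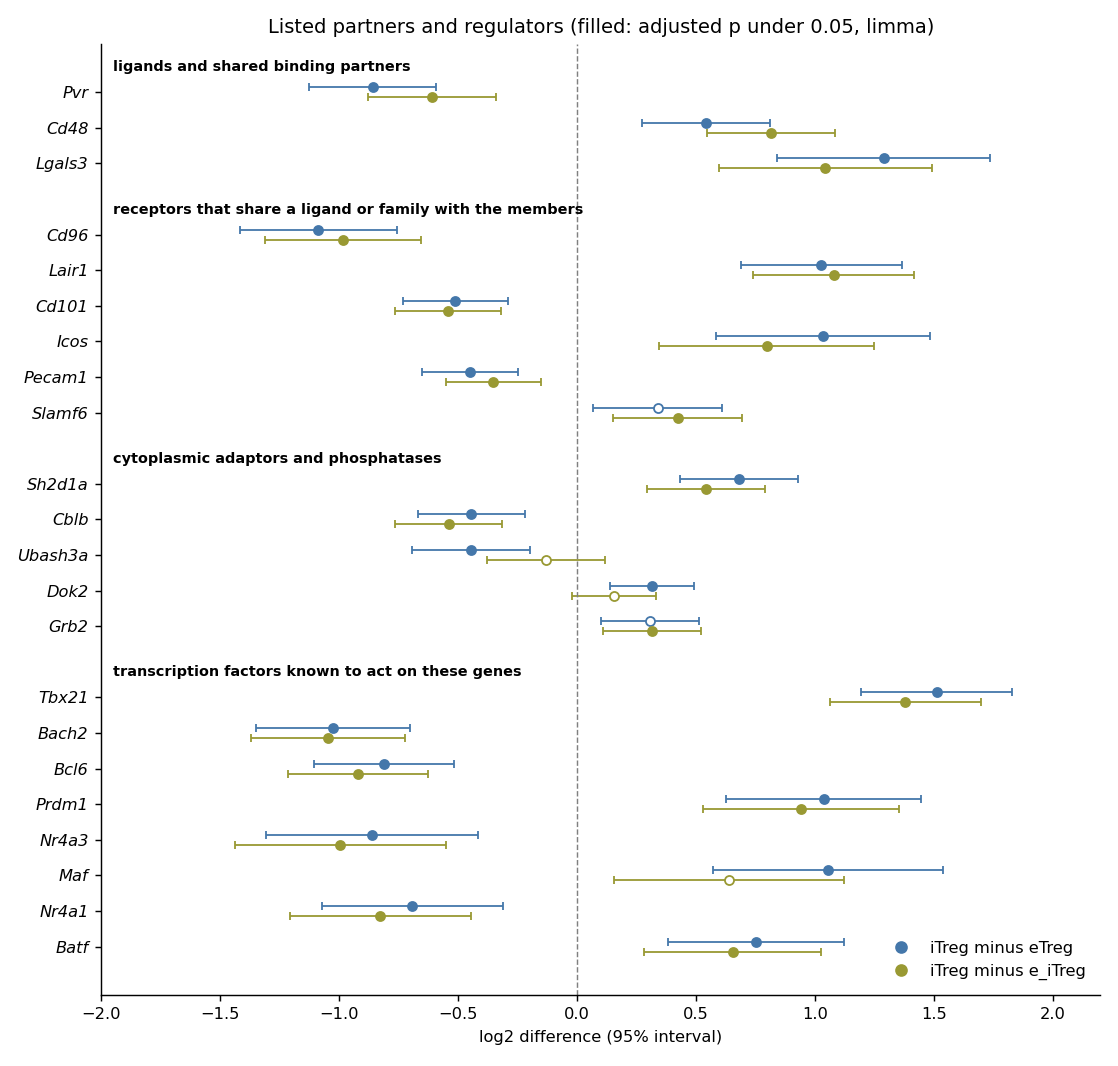
Log2 differences (x axis, with 95% intervals) of the listed ligands, related receptors, adaptors and transcription factors (y axis) in iTreg minus eTreg and iTreg minus e_iTreg, filled where limma's adjusted p was under 0.05. Tbx21, Lgals3, Maf and Prdm1 lie farthest to the right against eTreg (1.04 to 1.51), and Cd96, Bach2, Pvr and Nr4a3 farthest to the left (-1.09 to -0.86).

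The genes whose profile over the 12 arrays was most like that of each receptor past the threshold were found among 12607 genes, by the root mean square difference of the centred log2 values. For Havcr2, whose own values had a root mean square deviation of 1.06, the nearest were the chemokine receptor Ccr2 (difference 0.184), Itgam (0.287) and the long non-coding RNA Morrbid (0.317). Ccr2 rose by 1.96 ± 0.39 and Morrbid by 1.97 ± 0.25 over eTreg. For Lag3 (0.501) they were the glycosyltransferase Gcnt1 (0.121), the cell cycle factor E2f3 (0.123) and the kinase Ripk3 (0.127). Tigit (0.695) was nearest to the calcium pump Atp2b4 (0.242), Gcnt1 (0.261) and Icos (0.266). Cd160, with a small range (0.180), was nearest to Msc (0.0649), Myrip (0.0791) and Ackr2 (0.0808), 0 of which passed in either comparison with iTreg. The points share the same 12 arrays and their normalization.

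Genes next to the members in the RefSeq order of GRCm38.p6 were read beside them, a choice made after the members' values were known. Lag3 lies between Cd4 (0.08 ± 0.09) and Ptms (0.07 ± 0.10), neither of which passed against eTreg. Tigit, which rose, lies beside Zbtb20, a zinc finger repressor that fell by 1.01 ± 0.15 against eTreg (limma adjusted p = 0.00121) and by 1.07 ± 0.15 against e_iTreg (limma adjusted p = 0.00099). Havcr2 lies beside Med7, a Mediator subunit that fell by 0.50 ± 0.13 against eTreg (limma adjusted p = 0.021) and was at -0.39 ± 0.13 against e_iTreg (limma adjusted p = 0.0595). Klrg1 lies beside M6pr, a mannose 6-phosphate receptor that rose by 0.54 ± 0.16 against e_iTreg (limma adjusted p = 0.0426) and was at 0.44 ± 0.16 against eTreg (limma adjusted p = 0.112). Btla and Cd200 are neighbours of each other, as are Cd5 and Cd6 (0.02 ± 0.10) and Cd244a and the SLAM receptor Ly9 (-0.06 ± 0.09), and none of these passed.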

How the data were processed

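Splenic Treg of 12 samples were measured on 1-colour Affymetrix arrays, after 2 rounds of amplification from 2 ng of RNA per the labels' protocols. The deposited values are log2 expression values per probe set, made by the authors with oligo and RMA per the submitters' processing notes. RMA corrects background, normalizes between arrays and summarises probes, which compresses differences of dim probe sets. Versions and settings are not given in the sources used here.

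Of 41345 rows, 23521 had exactly 1 gene symbol in the platform annotation, 1814 had several and 16010 none. The rows with 1 symbol were fitted by lmFit and eBayes of limma 3.58.1 under R 4.3.3, with 3 groups of 4 arrays (degrees of freedom 9 residual, 5.78 prior). Tests were two-sided with Benjamini-Hochberg adjustment over the 23521 rows and a threshold of adjusted p 0.05. The number of arrays limits the precision, and log2 differences had a median SE of 0.121. Fits were tested on simulated data.

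The 10 members and the gene lists were chosen with earlier results of these data known. Named genes were all members, up to 8 per list past the threshold, and the 3 genes most alike to each member past the threshold. Same-numbered arrays deviated together weakly or not at all (correlations from -0.15 to 0.24), so replicate numbers were not taken as pairs. Between e_iTreg and eTreg the correlations were all positive (0.07 to 0.24). Alternatives were other normalizations, filters on dim rows, other error models, 2 groups alone, a replicate block, other thresholds and leaving out each array. Chosen after seeing the data were fits lacking arrays with the signal of 1 sex or low B cell markers, and fits with marker means as covariates. Promoters and gene neighbours came from RefSeq tables of GRCm38.p6. The genome build of the array annotation is not given in the sources used here, so probe sets are named by gene only.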

Additional observations from a re-analysis of the deposited data

Results flagged for a closer look

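In groups of 4 arrays, an array was singled out where its gap to the nearest of the others, as a share of the group's range, was above Dixon's 95% critical value. Of 105 groups (35 genes in 3 groups) 2 were so marked, and chance alone marks about 1 in 20. Cd160 in e_iTreg replicate 1 was at 6.35, against 6.55 to 6.56 in the other 3 arrays of the group. Pvr in e_iTreg replicate 4 was at 8.86, against 8.37 to 8.44 in the other 3.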

How the results depend on the processing

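The count of receptors past the threshold in iTreg minus eTreg (3) became 0 in the fit lacking 3 arrays low in B cell markers, 0 with the plasma and myeloid marker covariate and 1 (Klrg1, lower) with the cell cycle marker covariate. In iTreg minus e_iTreg (3) it became 1 (Klrg1, lower) with the cell cycle marker covariate. Klrg1 changed there from 0.27 and 0.05, which did not pass, to -1.72 and -1.82 in the 2 comparisons. Those covariate values extend a trend to marker levels that only iTreg arrays have. For the listed partners and regulators (20 against eTreg) the count was 11 lacking the arrays with the signal of 1 sex, 9 lacking the arrays low in B cell markers, 8 with the plasma and myeloid covariate and 0 with the cell cycle covariate. Against e_iTreg (22) it was 14 with a fold of at least 1.5, 13 lacking the arrays with the signal of 1 sex, 14 with the plasma and myeloid covariate and 0 with the cell cycle covariate. The causes were not tested. Leaving out 1 array at a time gave 2 to 3 receptors against eTreg and 2 to 4 against e_iTreg, and 16 to 23 and 15 to 21 listed genes.

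With the replicate block 3 and 3 receptors and 21 and 18 listed genes passed, and Havcr2 had limma adjusted p = 0.00603 and 0.00251. The block changed no call of a receptor. Over the members' alternatives 767 values kept direction and side of the threshold, 30 lost it, 5 gained it and 2 reversed, where a change of sign of a value past the threshold in neither fit counts as kept. Havcr2 outside iTreg, Cd160 and Cd244a were dim. With rows above log2 6 alone all 10 receptors were still tested, and 3 and 3 passed. That filter removed none of the dim receptors, so it cannot show whether their calls depend on dimness. With rows above the median alone 8 receptors were tested, Havcr2 and Cd160 not among them, and 2 and 2 passed. Tigit against e_iTreg gained a call there (limma adjusted p = 0.0484).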
